A study of Homo sapiens with 480 samples.

Results

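The 10 genes described here belong to serine synthesis, asparagine synthesis and the amino acid stress response, and were measured in single Jurkat and J-Lat A2 cells. They were taken from the deposited table by symbol: PHGDH, PSAT1, PSPH, SHMT2, ASNS, ATF4, TRIB3, DDIT3, SLC3A2 and SLC7A5, which are 10 of its 20302 features. No measured value entered the choice of these symbols, but the set was proposed with earlier results of these data known. All 10 passed the filter on low counts.

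Jurkat is a human T cell leukaemia line. J-Lat A2 is 1 clone of it that carries an integrated, latent HIV-derived provirus, so a difference between the lines is a difference between this clone and the parent cells and cannot be told apart from an effect of the provirus. Both lines were held for 24 h with 0.1% v/v DMSO as the control, with 1 uM SAHA (suberoylanilide hydroxamic acid, a histone deacetylase inhibitor) or with 1 ug/mL of the phorbol ester PMA, an activator of protein kinase C. Flow sorting then placed 1 cell per well on 5 plates, each with 96 wells, in 2 batches. The design thus asks how 2 latency-reversing agents change transcription in the clone and in its parent. A filter on total and gene number kept 94 of 96 control wells and 79 of 81 PMA wells of J-Lat A2, and 67 of 120 and 68 of 81 of its SAHA wells in the first and second batch. All Jurkat wells passed (30 control, 36 SAHA and 36 PMA wells).

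PHGDH, PSAT1 and PSPH are the successive enzymes that make serine from a glycolytic intermediate, and SHMT2 passes the serine carbon to mitochondrial folate. ASNS makes asparagine from aspartate and glutamine. ATF4 is the transcription factor that is translated when a kinase of the integrated stress response phosphorylates eIF2, and the enzymes above, TRIB3, DDIT3 (CHOP) and the 2 subunits of the large neutral amino acid exchanger, SLC3A2 and SLC7A5, are among its known targets. TRIB3 is a pseudokinase that restrains ATF4 and AKT, and DDIT3 is a transcription factor linked to cell death under prolonged stress. ATF4 is controlled largely through translation, so its transcript level is not a measure of its activity.

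Gene positions are those of GENCODE release 29 on GRCh38. PHGDH is at chr1:119648411-119744226, PSAT1 at chr9:78297143-78330093, PSPH at chr7:56011051-56051604 and SHMT2 at chr12:57229327-57234935. ASNS is at chr7:97852118-97872542, ATF4 at chr22:39519695-39522685, TRIB3 at chr20:362835-397559 and DDIT3 at chr12:57516588-57521737. SLC3A2 is at chr11:62856102-62888875 and SLC7A5 at chr16:87830023-87869488. The values sum the reads the authors gave to each gene as a whole, so exons and isoforms are not told apart.

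ATF4 binds with C/EBP partners to a composite element written here as TGATGNAA. This element was searched on both strands of the RefSeq promoter windows (GRCh38.p14), which run from 250 bases before to 50 bases after each start site. It was found in 3.62% of all 35116 windows. Its TGATGCAA form, which every match also counts under TGATGNAA, was found in 0.866%. Of the 8 members with a window (PSPH and SHMT2 had none), ASNS and SLC3A2 held TGATGNAA, and none held TGATGCAA. The ASNS match lies 68 to 61 bases before the start site on the gene strand; this is the place of the known nutrient-sensing element of ASNS, and the annotation used for coordinates (GENCODE release 29) has longer ASNS transcripts whose first exon reaches it. The SLC3A2 match lies after the start site and is not printed. Among 34 members and named genes of the related lists below, 27 had a window. In 4 of them a stretch of 30 bases centred on a match lay in full before the start site, within the window. These 4 stretches of 30 bases are shown because they place the element beside genes whose levels are given below, with the element in capitals and each read 5′ to 3′ on the gene strand.
ASNS, chr7:97872458-97872487, minus strand: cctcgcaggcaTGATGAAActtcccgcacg
SLC1A5, chr19:46784893-46784922, minus strand: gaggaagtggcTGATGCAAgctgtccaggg
MTHFD1L, chr6:150866346-150866375, plus strand: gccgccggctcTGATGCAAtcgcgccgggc
GARS1, chr7:30594834-30594863, plus strand: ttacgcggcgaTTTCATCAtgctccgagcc
In GARS1 the capitals are the element on the opposite strand. A match is a description of letters and does not show binding. By gene symbol, TGATGNAA was found in 4.46% of all genes with a window. In the lists below it was found in 1 of 17 genes of serine and one-carbon metabolism, 1 of 12 of aspartate, glutamine and asparagine handling, 4 of 14 transporters, 7 of 20 other ATF4 or CHOP targets, 7 of 16 tRNA synthetases, 1 of 16 genes of eIF2 control and 1 of 19 of the ATF6 and XBP1 arm.

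Levels are CPM, each gene's share of all counts scaled to 1000000, of the summed wells of a group, either per batch (9 sums) or per plate (24 sums). J-Lat A2 with DMSO, J-Lat A2 with SAHA and Jurkat with DMSO had both batches (n = 2 sums). The other 3 groups had the second batch only (n = 1 sum over 3 plates), and the test lends them the spread of the first 3. Nothing in the labels says that the batches were separate cultures, so the p-values measure only the spread between these sums, which may be technical. A gene was called at an edgeR adjusted p under 0.05 over the 13558 genes tested. Median totals per well were 474569 to 546580 across groups but differed by batch. In the first batch they were 284001 with SAHA and 472011 with DMSO in J-Lat A2, and 364636 with DMSO in Jurkat. In the second batch these were 555658, 550336 and 512920. The median share of mitochondrial transcripts was 4.93% with SAHA against 3.60% with DMSO in J-Lat A2 and 4.51% against 3.42% in Jurkat. The 12 T lineage markers summed to 4766 CPM in J-Lat A2 with DMSO, 971.6 with SAHA and 13950 with PMA, and to 5187, 1233 and 12380 in Jurkat. CD14, LYZ and FCGR3A (myeloid cells) summed to at most 0.260 CPM in each of the 6 groups. The B cell gene CD79A stood at 63.5, 6.51 and 88.9 CPM in J-Lat A2 with DMSO, SAHA and PMA and at 6.71, 0.312 and 48.95 CPM in Jurkat. With SAHA, erythroid markers summed to 2.20 CPM in J-Lat A2 and 0.675 CPM in Jurkat, and fibroblast markers to 5.56 and 2.34 CPM, against at most 0.240 CPM for either list with DMSO. Epithelial markers summed to at most 2.90 CPM. The J-Lat A2 wells with SAHA stood apart: 20 of its kept wells had fewer than 2000 genes, against 1 in all other groups together. Of these 20, 18 had no read of PSAT1, PHGDH, SHMT2 or ATF4. Results for that group are therefore also given over wells with at least 2000 genes, a limit chosen after seeing the data.

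With SAHA, J-Lat A2 cells held less transcript of most of the set. PSAT1, PHGDH, SHMT2, ATF4, TRIB3 and SLC3A2, 6 of the 10 members, fell and none rose, against a background of 8.43% of all genes called, 4.9% lower and 3.53% higher. All 10 estimates were below 0 and 8 had an unadjusted p under 0.05. The highest of these 8 was that of ASNS (edgeR, p = 0.0397), which ranked 2597 of 13558 genes by p. With DESeq2 size factors in the same fit, 2866 of the 13558 genes had an unadjusted p under 0.05. The members' median log2 change was -1.26, and that of all tested genes was 0.12. The same 6 members were called over wells with at least 2000 genes. The shifts in mitochondrial share, in T lineage markers and in CD79A went with the same contrast, and their part in it was not tested.

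**Figure D1:**
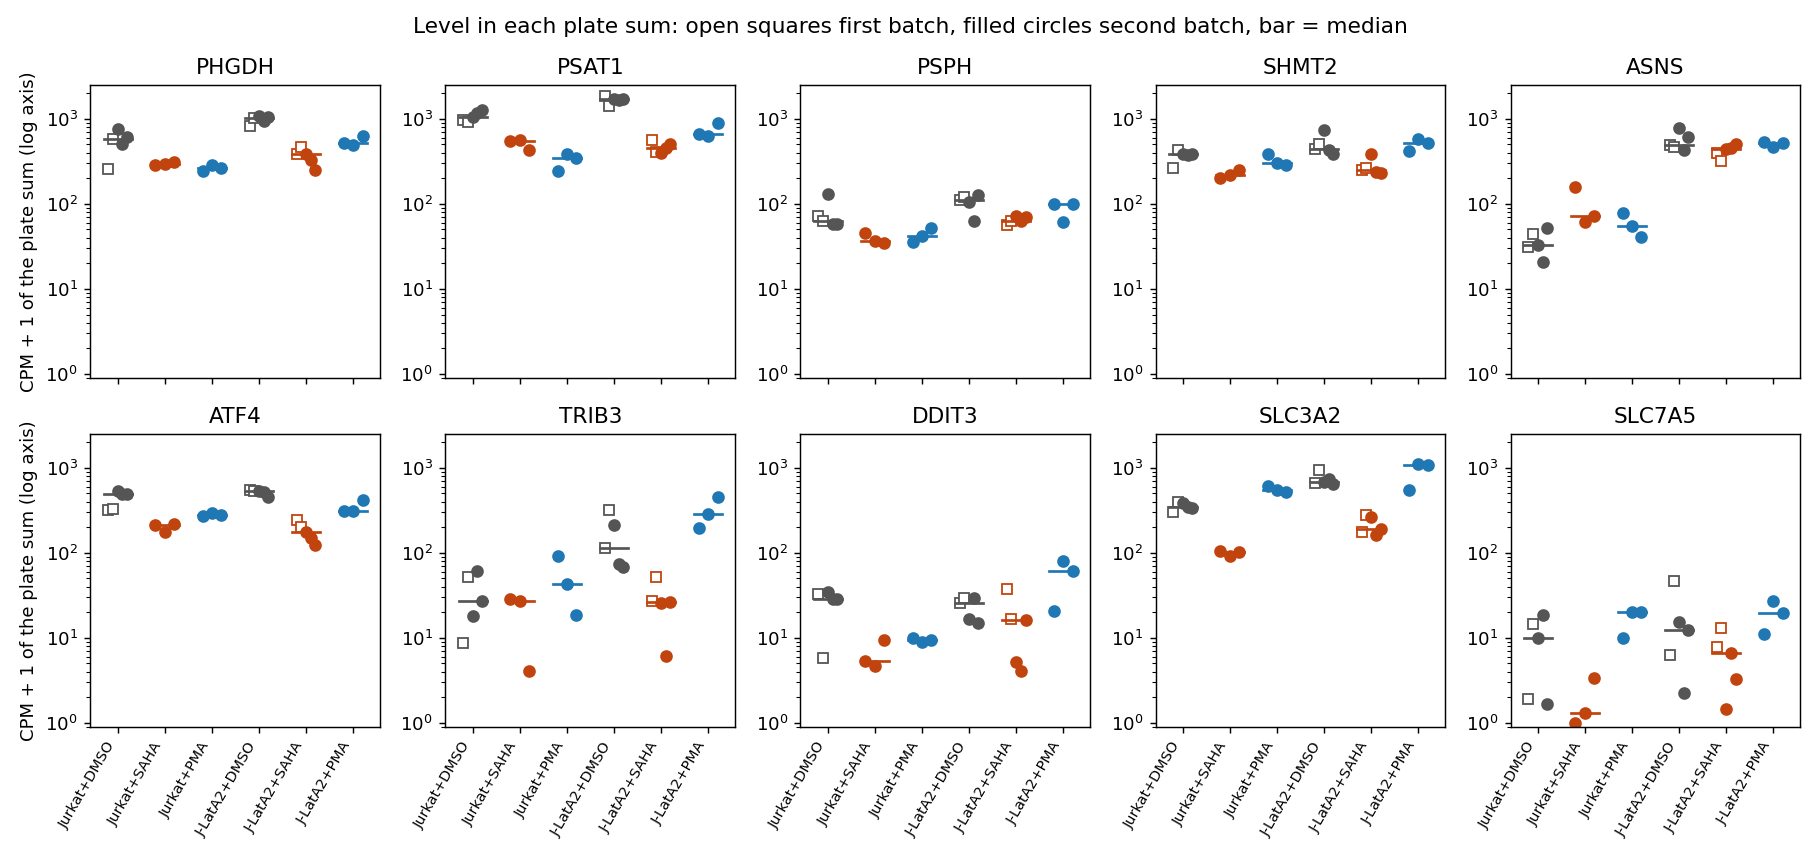
Level of each gene in every plate sum (CPM + 1, log axis) by group; open squares are first-batch plates, filled circles second-batch plates, and the bar is the median. PSAT1, SLC3A2 and ATF4 sit lower in all 5 plates with SAHA than in all 5 with DMSO in J-Lat A2, and ASNS sits higher in J-Lat A2 than in Jurkat in every plate.

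Among the serine synthesis enzymes, PSAT1, the aminotransferase of the pathway, had the lowest log2 change. Its level in J-Lat A2 was 1701 and 1727 CPM in the 2 batches with DMSO and 498.5 and 446.5 CPM with SAHA. The lowest DMSO plate held 1405 CPM and the highest SAHA plate 561 CPM, so the plates did not overlap. The fitted log2 change was -1.86 (SE 0.16), a 3.62-fold lower level, with an edgeR adjusted p of 0.000206. PHGDH, the first and committing enzyme, went from 851 and 1049 CPM to 410 and 314 CPM, a log2 change of -1.36 (SE 0.24, adjusted p = 0.00809), again with no overlap of the 5 plates of each group.

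SHMT2 was lower with SAHA on 5 of 5 plates in J-Lat A2, with 450.3 and 536 CPM against 252 and 278 CPM, a log2 change of -0.89 (SE 0.15, adjusted p = 0.00705). The plates overlapped, since 1 SAHA plate reached 388 CPM and the lowest DMSO plate was at 382 CPM. The call was lost when the second-batch DMSO sum was left out (adjusted p = 0.0830). PSPH, the phosphatase that releases serine, stood at 111.2 and 99.3 CPM with DMSO and 57.2 and 65.96 CPM with SAHA, a log2 change of -0.78 (SE 0.26) that did not pass the test (adjusted p = 0.105).

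ASNS did not pass the test with SAHA in J-Lat A2. It stood at 470.1 and 627 CPM with DMSO and at 361 and 463 CPM with SAHA there, a log2 change of -0.41 (95% interval -0.80 to -0.02, adjusted p = 0.207). The plates overlapped, and ASNS was lower with SAHA on 4 of 5 plates.

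ATF4 itself stood at 536 and 517.4 CPM with DMSO and 224 and 145.5 CPM with SAHA in J-Lat A2. The highest SAHA plate (241 CPM) was below the lowest DMSO plate (455 CPM). The log2 change was -1.51 (SE 0.26, adjusted p = 0.00751).

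TRIB3 had the lowest log2 change of the set with SAHA in J-Lat A2. It went from 159.8 and 124.5 CPM to 34.4 and 17.95 CPM, a log2 change of -2.46 (SE 0.38) or 5.50-fold lower (adjusted p = 0.00446). The 5 DMSO plates ran from 66.3 to 317 CPM and the 5 SAHA plates from 5.19 to 51.1 CPM. In the first-batch DMSO sum the top well held 22.8% of the TRIB3 counts, and in the second-batch sum 40.8%. In the second batch alone, with plates as units, the call was lost (adjusted p = 0.0601, log2 change -2.50). DDIT3, at 25.2 and 19.9 CPM with DMSO and 28.9 and 7.56 CPM with SAHA, moved in opposite directions in the 2 batches (log2 change -0.46, 95% interval -1.80 to 0.88). Reads of DDIT3 cannot be separated with certainty from those of genes that overlap it in the annotation, among them MARS1 and MBD6. The same limit holds for SHMT2, which NDUFA4L2 overlaps on the other strand.

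SLC3A2, the heavy chain that carries amino acid exchangers to the cell surface, stood at 719.2 and 707.2 CPM with DMSO and 208 and 199.2 CPM with SAHA in J-Lat A2. Its DMSO plates ran from 647 to 934 CPM, and no SAHA plate was above 274 CPM. The log2 change was -1.81 (SE 0.15, adjusted p = 0.000196), a 3.50-fold lower level. Its light chain partner SLC7A5 was sparse, with 15.0 and 9.37 CPM with DMSO and 8.57 and 2.83 CPM with SAHA, and the interval of its log2 change ran from -3.12 to 0.80.

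**Figure D2:**
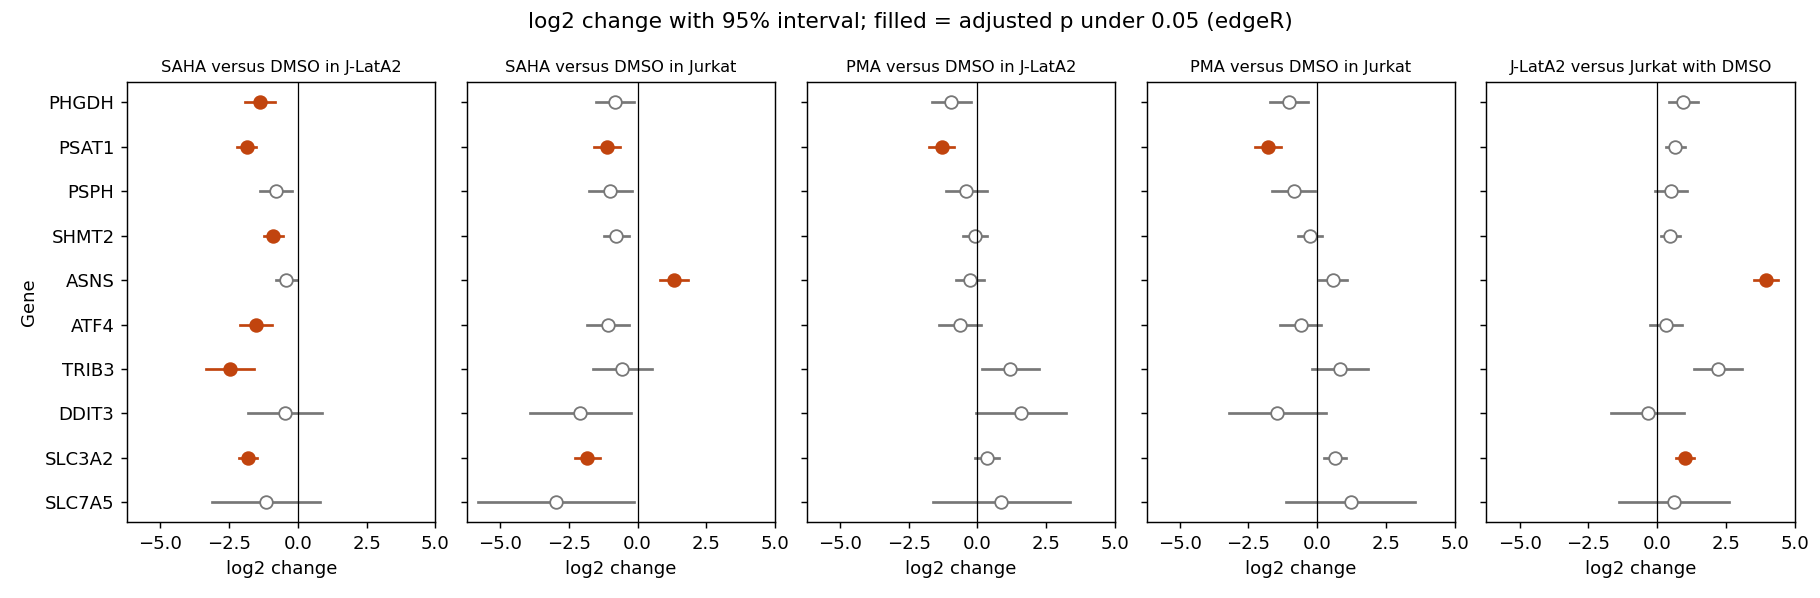
Log2 change of each gene in 5 comparisons, with its 95% interval; filled points have an adjusted p under 0.05. With SAHA in J-Lat A2 the 6 filled points lie between -0.89 and -2.46, while in the comparison of the lines with DMSO the ASNS point lies at 3.96.

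In Jurkat cells with SAHA, PSAT1 and SLC3A2 fell and ASNS rose, where 4.22% of all genes were called, 2.37% lower and 1.84% higher. PSAT1 stood at 964 and 1219 CPM with DMSO and at 515.9 CPM with SAHA, a log2 change of -1.11 (SE 0.20, adjusted p = 0.0166). SLC3A2 stood at 338 and 366 CPM with DMSO and at 99.4 CPM with SAHA, a log2 change of -1.83 (SE 0.20, adjusted p = 0.00221). For both genes the 3 SAHA plates lay below the 5 DMSO plates, and SLC3A2 changed by nearly the same amount in the 2 lines: the difference between them was 0.02 on the log2 scale (95% interval -0.52 to 0.56).

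ASNS in Jurkat went from 35.2 and 34.8 CPM with DMSO to 96.4 CPM with SAHA, a log2 change of 1.33 (SE 0.23, adjusted p = 0.0118). The 3 SAHA plates held 155.2, 60.3 and 71.6 CPM, and the 5 DMSO plates 19.8 to 50.7 CPM. One of the 36 SAHA wells held 36.6% of the group's ASNS counts, and its plate was the highest. A read was found in 58.3% of Jurkat wells with SAHA (95% interval 40.8 to 74.5) and 43.3% with DMSO (25.5 to 62.6), so the share of wells did not separate the groups. The ASNS and PSAT1 calls in Jurkat were lost without the second-batch DMSO sum (adjusted p = 0.0976 and 0.133).

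The other 7 members did not pass the test in Jurkat with SAHA. SHMT2 had 224 CPM against 319 and 394 CPM (log2 change -0.78, adjusted p = 0.0660). ATF4 had 201.4 CPM against 323 and 519 CPM (log2 change -1.07, adjusted p = 0.127). TRIB3, at 19.5 CPM against 21.2 and 38.04 CPM, had a log2 change of -0.55 with an interval from -1.62 to 0.51. DDIT3 had 5.40 CPM against 24.1 and 30.2 CPM (log2 change -2.08, adjusted p = 0.221). SLC7A5 had 16 counts from 3 of 36 wells, 81.3% of them from 1 well. PHGDH and PSPH had log2 changes of -0.83 and -0.99 (adjusted p = 0.192 and 0.161).

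The SAHA effect was then compared between the lines. No member passed that test by edgeR, with 3 at an unadjusted p under 0.05 and 1 gene called in the whole table (0.00738% called). For ASNS the SAHA effect in J-Lat A2 minus that in Jurkat was -1.74 (SE 0.29, unadjusted p = 0.000129, edgeR adjusted p = 0.2503; over the alternatives from 0.000214 by DESeq2, which called it, to 0.695). For TRIB3 it was -1.91 (SE 0.59, adjusted p = 1) and for PSAT1 -0.75 (SE 0.25, adjusted p = 1). By edgeR a difference between the lines in the SAHA effect was thus not shown for these genes.

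With PMA, PSAT1 was the single member called in either line, and it fell in both. In J-Lat A2 it went from 1701 and 1727 CPM to 710 CPM, a log2 change of -1.31 (SE 0.21, adjusted p = 0.0120), where 1.98% of genes were called, 0.804% lower and 1.18% higher. In Jurkat it went from 964 and 1219 CPM to 320.3 CPM, a log2 change of -1.80 (SE 0.21, adjusted p = 0.00309), where 2.27% were called, 1.11% lower and 1.17% higher. The 3 PMA plates of each line lay below its 5 DMSO plates. The J-Lat A2 call was lost without the second-batch DMSO sum (adjusted p = 0.0867).

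PHGDH with PMA stood at 529.6 CPM in J-Lat A2 and 260.1 CPM in Jurkat, with log2 changes of -0.95 and -1.03 that did not pass the test (adjusted p = 0.211 and 0.152). ASNS had log2 changes of -0.27 (95% interval -0.77 to 0.23) in J-Lat A2 and 0.57 (0.06 to 1.09) in Jurkat. SHMT2 had a log2 change of -0.09 in J-Lat A2 (95% interval -0.53 to 0.35). Its log2 ratio to DMSO on the 3 plates ran from -0.81 to 0.44, higher on 2 plates and lower on 1. ATF4 had log2 changes of -0.64 and -0.60 in J-Lat A2 and Jurkat (adjusted p = 0.535 and 0.512).

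TRIB3 stood at 303.6 CPM with PMA in J-Lat A2, a log2 change of 1.20 (95% interval 0.17 to 2.23, adjusted p = 0.305), and at 50.1 CPM in Jurkat (0.81, -0.20 to 1.83). SLC3A2 stood at 911 CPM in J-Lat A2 and 552 CPM in Jurkat, with log2 changes of 0.35 (adjusted p = 0.544) and 0.64 (adjusted p = 0.132). In J-Lat A2, SLC3A2 was higher with PMA on 2 of 3 plates. All 3 Jurkat plates with PMA, from 518.1 to 602 CPM, lay above the 5 DMSO plates, from 303 to 396 CPM. TRIB3 was higher with PMA on 2 of 3 plates in J-Lat A2, but on 1 of 3 in Jurkat and lower on 2. The top Jurkat well with PMA held 26.4% of that group's TRIB3 counts. DDIT3 with PMA was higher than with DMSO on 3 of 3 plates in J-Lat A2 and lower on 3 of 3 in Jurkat, at 54.5 and 8.38 CPM. The difference of these PMA effects was 3.04 (SE 1.05, unadjusted p = 0.0162, edgeR adjusted p = 1). No member was called for a difference in the PMA effect by edgeR, and 0 were called by DESeq2. Of all genes 0.0221% were called by edgeR, 0.00738% higher and 0.0148% lower in J-Lat A2. By edgeR 2 members had an unadjusted p under 0.05, as did 465 of 13558 genes with DESeq2 size factors.

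PMA and SAHA, compared directly in J-Lat A2, differed for TRIB3 and SLC3A2, both higher with PMA, where 3.62% of genes were called, 2.25% higher and 1.37% lower with PMA. TRIB3 was 12.6-fold higher (log2 difference 3.66, SE 0.48, adjusted p = 0.00241), with PMA plates from 193.3 to 449.9 CPM against SAHA plates from 5.19 to 51.1 CPM. SLC3A2 was 4.46-fold higher (2.16, SE 0.19, adjusted p = 0.000174). This comparison and the ones above share their SAHA and PMA sums, so they are not separate evidence.

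With DMSO alone, J-Lat A2 differed from Jurkat most of all in ASNS. Its plates held 485, 460.1, 777, 424 and 618 CPM in J-Lat A2 and 30.5, 43.8, 32.04, 19.8 and 50.7 CPM in Jurkat, with no overlap in either batch. The log2 difference was 3.96 (SE 0.20), a 15.5-fold higher level in the clone (adjusted p = 1.07e-05), and ASNS ranked 4 of 13558 genes by p. SLC3A2 was the other member called, with 719.2 and 707.2 CPM against 338 and 366 CPM, a log2 difference of 1.02 (SE 0.15, adjusted p = 0.0190). Of all genes 0.398% were called, 0.251% higher and 0.148% lower in J-Lat A2. The SLC3A2 call was lost when any of the 4 DMSO sums was left out (adjusted p = 0.0626 to 0.151) and in the second batch alone (adjusted p = 0.0612).

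TRIB3 was 4.64-fold higher in J-Lat A2 than in Jurkat with DMSO and just missed the threshold (log2 difference 2.21, SE 0.39, adjusted p = 0.0526). On all 5 plates it was higher in the clone. PSAT1 and PHGDH were higher on all 5 plates as well, by 0.65 and 0.95 on the log2 scale (adjusted p = 0.137 and 0.167). ATF4 did not separate the lines (log2 difference 0.32, 95% interval -0.26 to 0.90), nor did DDIT3 (-0.34, -1.67 to 0.98).

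Across the 6 groups the order of ASNS levels was J-Lat A2 with DMSO, then PMA, then SAHA, followed far below by Jurkat with SAHA, PMA and DMSO. The mean over batches was 548 ± 110.7 CPM (SD, n = 2) for J-Lat A2 with DMSO, 412 ± 71.9 CPM (SD, n = 2) with SAHA and 492.6 CPM with PMA (1 sum), so DMSO and PMA were closer than the SD of DMSO, while PMA and SAHA were 1 sum and 2 sums whose difference did not pass the test (adjusted p = 0.885). In Jurkat the mean was 35.004 ± 0.285 CPM (SD, n = 2) with DMSO, and the single sums were 57.1 CPM with PMA and 96.4 CPM with SAHA. Every J-Lat A2 plate (lowest 316 CPM) lay above every Jurkat plate (highest 155.2 CPM).

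**Figure D3:**
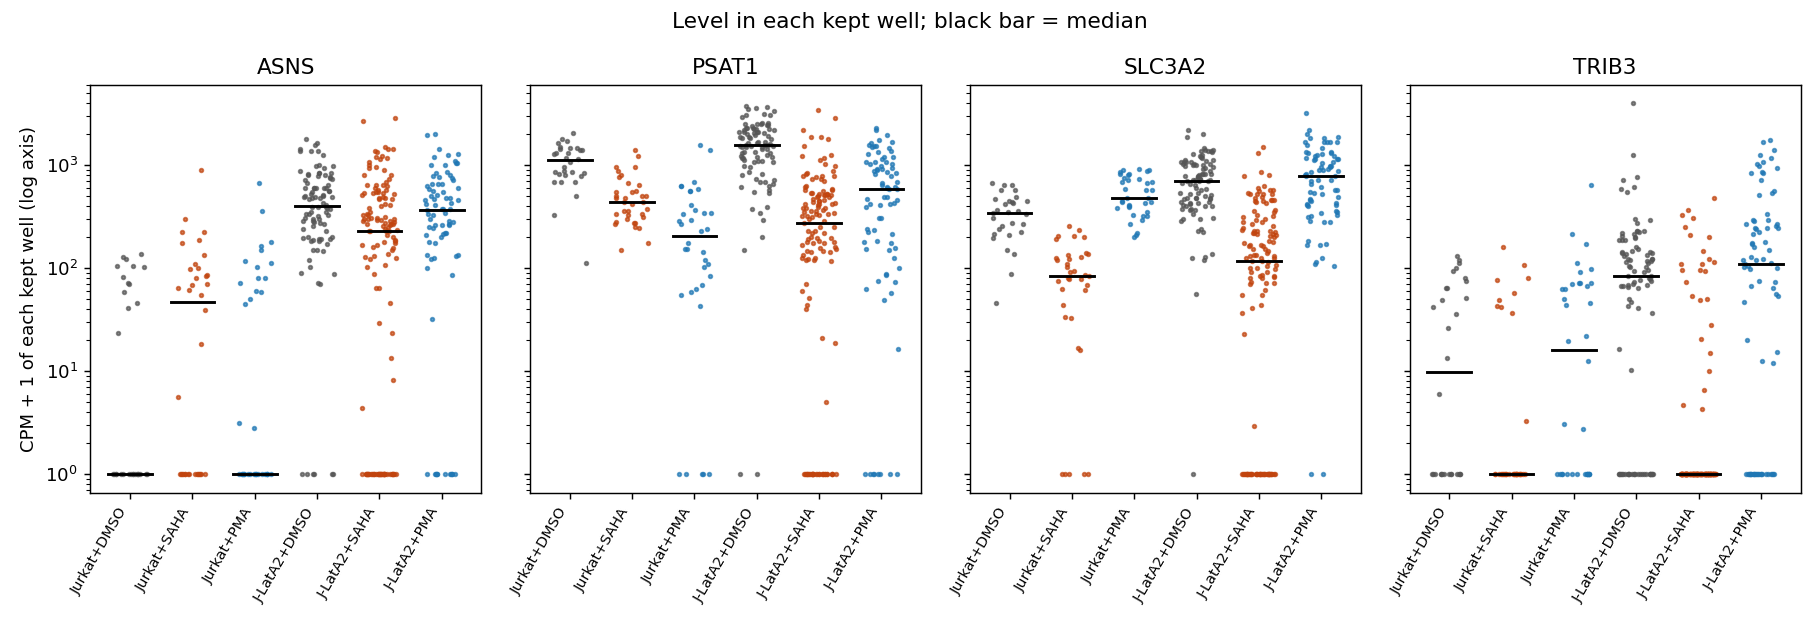
CPM + 1 (log axis) of ASNS, PSAT1, SLC3A2 and TRIB3 in every kept well, by group, with the median as a black bar; wells with no count lie at 1. The median Jurkat well with DMSO had no ASNS count, and the median J-Lat A2 well with DMSO stood at 405 CPM.

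Single wells showed how these sums were made up. A read means a count of at least 1. ASNS had a read in 93.6% of J-Lat A2 wells with DMSO (95% interval 86.6 to 97.6) and in 43.3% of Jurkat wells (25.5 to 62.6). Thinned to 100000 counts per well, the shares were 94.5% of 91 wells and 43.3% of 30 wells. Over both batches, median totals per well were similar (546580 and 499797). They were 472011 and 364636 in the first batch, and 550336 and 512920 in the second. Jurkat wells held more genes (median 6093 against 5032). The Jurkat well with the most ASNS with DMSO reached 137.01 CPM, below the lower quartile of J-Lat A2 wells, 200.2 CPM.

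TRIB3 changed in the share of wells as well as in the sum. In J-Lat A2 it had a read in 71.3% of control wells (61.02 to 80.1), in 19.3% of SAHA wells (13.0 to 26.9) and in 69.6% of PMA wells (58.2 to 79.5). Over wells with at least 2000 genes the SAHA share was 20.9%, and thinned to 100000 counts it was 16.2% of the wells deep enough. The 90th percentile of TRIB3 in J-Lat A2 wells was 949 CPM with PMA and 261 CPM with DMSO. In Jurkat a read was seen in 53.3% of control wells (34.3 to 71.7), 27.8% of SAHA wells (14.2 to 45.2) and 58.3% of PMA wells (40.8 to 74.5).

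For the widely found genes the low-gene wells mattered. PSAT1 had a read in 97.9% of J-Lat A2 wells with DMSO and 78.5% with SAHA (70.6 to 85.1), but 91.3% over wells with at least 2000 genes. ATF4 went from 97.9% to 71.9% (63.5 to 79.2), or 84.3% over those wells, and SLC3A2 from 98.9% to 70.4% (61.9 to 77.9), or 81.7%. In Jurkat with SAHA, PSAT1 and ATF4 kept a read in 36 of 36 wells, and SLC3A2 in 86.1%. The median well held 1559 CPM of PSAT1 with DMSO and 274 CPM with SAHA in J-Lat A2, and 1120 and 440.4 CPM in Jurkat. PMA left 10 of 10 members with a read share above 40% in J-Lat A2, the lowest being SLC7A5 at 40.5% (29.6 to 52.1).

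**Figure D4:**
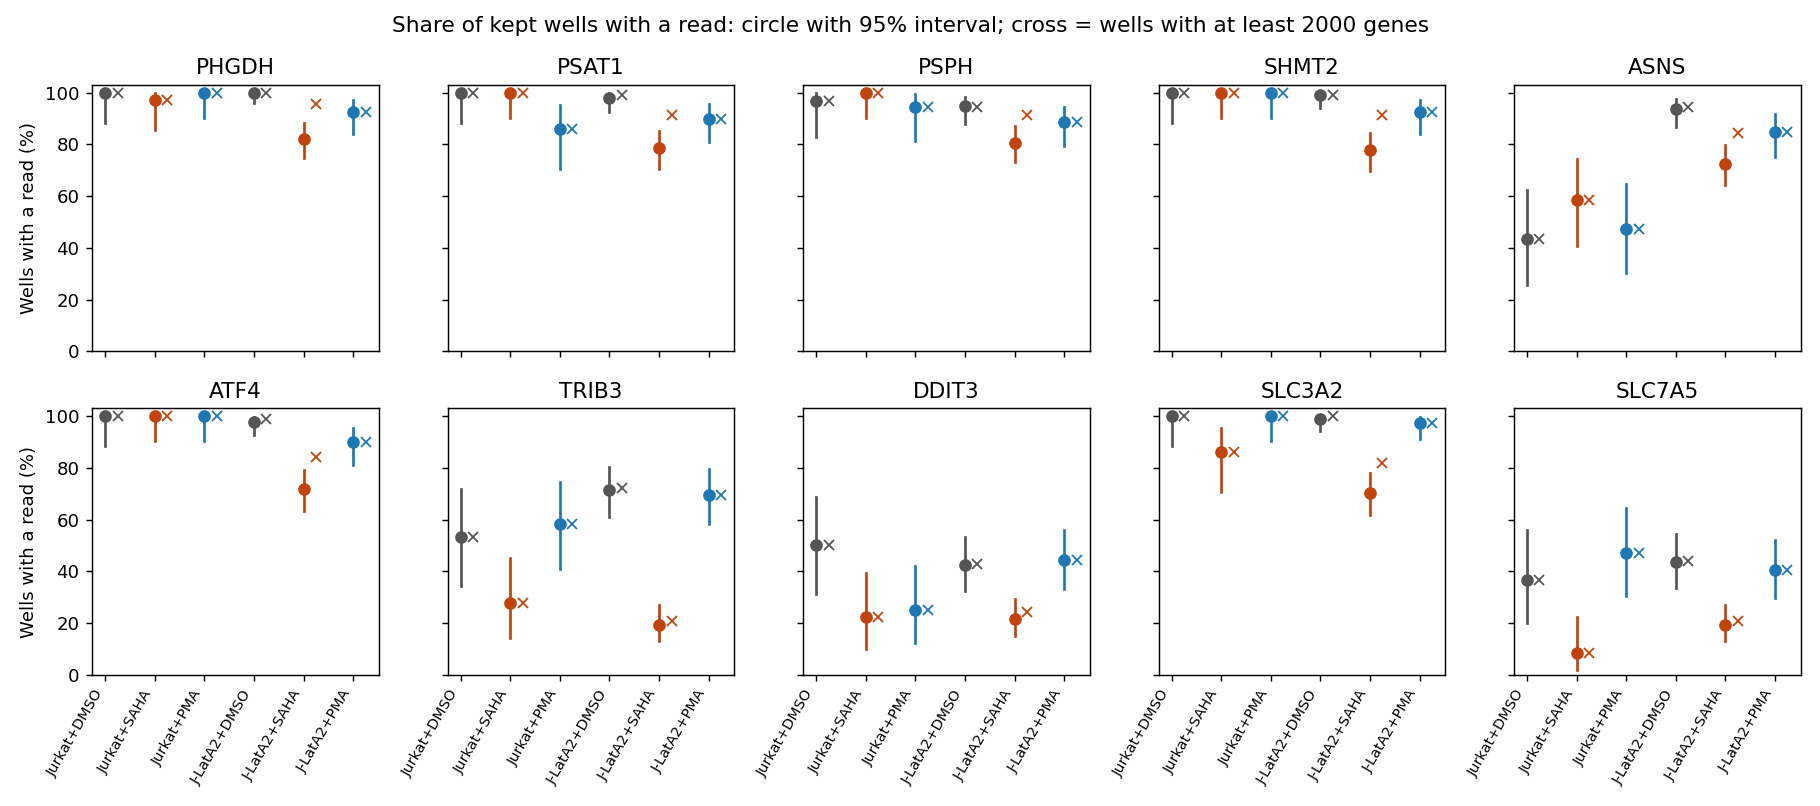
Share of kept wells with a read of each gene, by group, as circles with 95% Clopper-Pearson intervals; crosses give the share over wells with at least 2000 genes. TRIB3 falls from 71.3% with DMSO to 19.3% with SAHA in J-Lat A2, and ASNS stands at 93.6% in J-Lat A2 and 43.3% in Jurkat with DMSO.

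The related genes were read from 7 lists. Their counts stand beside the share of all genes called with SAHA in J-Lat A2, 4.9% lower and 3.53% higher. Of the cytosolic aminoacyl-tRNA synthetases, which charge tRNAs with amino acids, 12 of 20 were called lower and none higher (13 lower and 0 higher at an unadjusted p under 0.05, and 12 and 0 by DESeq2), with a list median of -0.86. LARS1 had a log2 change of -1.32 (SE 0.17, adjusted p = 0.00187), FARSA -1.30 (SE 0.16, adjusted p = 0.00123) and GARS1 -1.09 (SE 0.14, adjusted p = 0.00144). The count was 7 without the first-batch DMSO sum of J-Lat A2.

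Of 18 tested genes of serine and one-carbon metabolism, 6 fell and 1 rose with SAHA in J-Lat A2. The mitochondrial folate enzyme MTHFD2 went from 715.1 and 748 CPM to 211 and 274 CPM (log2 change -1.61, SE 0.16, adjusted p = 0.000419). MTHFD1L, which acts after it, went from 31.6 and 28.9 CPM to 2.86 and 3.97 CPM (-3.15, SE 0.53, adjusted p = 0.00666), and MTHFS had a change of -2.17 (SE 0.40). The gene that rose was DLD (0.74, SE 0.15), a subunit shared by several dehydrogenase complexes, named after its value was seen. Without the second-batch DMSO sum 2 genes fell.

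Of 16 transporters, 4 fell with SAHA in J-Lat A2 and none rose (1 higher at an unadjusted p under 0.05 and 0 by DESeq2). The glutamine carriers SLC1A5 (log2 change -2.04, SE 0.30, adjusted p = 0.00346), SLC38A1 (-1.62, SE 0.22) and SLC38A5 (-3.63, SE 0.63) were among them. SLC1A5 stood at 242 and 301 CPM with DMSO and 81.5 and 49.5 CPM with SAHA. The list median was -1.28, against 0.12 for all genes.

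Among 23 other known ATF4 or CHOP targets, 4 fell and 1 rose with SAHA in J-Lat A2. EIF4EBP1, which restrains cap-dependent translation, had a log2 change of -2.01 (SE 0.30), the tRNA exporter XPOT -1.58 (SE 0.23) and the asparaginyl-tRNA synthetase NARS1, which is also in the synthetase list, -1.24 (SE 0.16). The gene that rose was the death receptor TNFRSF10B (2.52, SE 0.65), named after its value was seen.

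Of 14 genes of aspartate, glutamine and asparagine handling, 5 fell and 1 rose. ASS1, which joins aspartate to citrulline, had a log2 change of -1.73 (SE 0.22), the mitochondrial aspartate aminotransferase GOT2 -0.84 (SE 0.15) and the malate dehydrogenase MDH1 0.88 (SE 0.15). Only 1 fell without the first-batch DMSO sum. The eIF2 list and the ATF6 and XBP1 arm had few calls, where 8.43% of all genes were called, 4.9% lower and 3.53% higher. With so few calls, no difference from these shares is claimed. The list of eIF2 kinases, eIF2, eIF2B and eIF2 phosphatase genes had 2 of 17 lower, EIF2S2 (-1.27, SE 0.18) and the double-stranded RNA kinase EIF2AK2 (-2.14, SE 0.37). In the ATF6 and XBP1 arm, 1 of 20 fell, the chaperone CALR (-1.31, SE 0.19), and 1 rose, SEL1L of the degradation complex of the endoplasmic reticulum (2.04, SE 0.49).

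**Figure D5:**
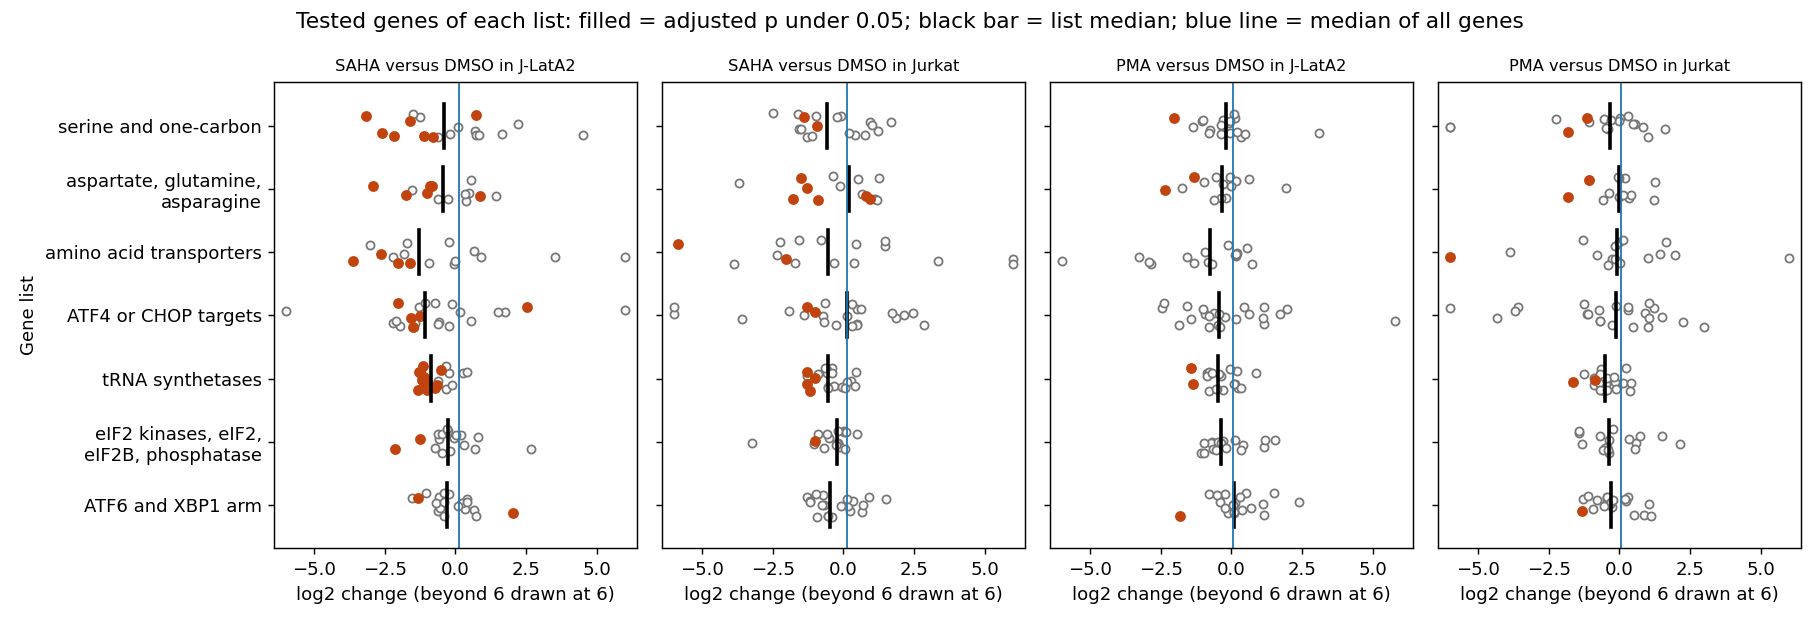
Log2 change of each tested gene of 7 lists in 4 comparisons with DMSO; filled points have an adjusted p under 0.05, the black bar is the list median and the blue line the median of all genes. With SAHA in J-Lat A2 the synthetases have 12 filled points, all below 0, and the 2 filled points of the eIF2 list are also below 0.

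In Jurkat with SAHA, where 2.37% of all genes were called lower and 1.84% higher, 4 of 20 synthetases fell (FARSA, YARS1 and LARS1 with log2 changes of -1.29, -1.20 and -1.27), 2 of 18 one-carbon genes (SFXN1, a mitochondrial serine carrier, at -1.40 and MTHFD2 at -0.93), 2 of 16 transporters and 2 of 23 ATF4 or CHOP targets (NARS1 at -1.01 and XPOT at -1.28). In the aspartate list 4 of 14 fell, with ASS1 at -1.77, GLUL at -1.30 and GOT2 at -0.90, and 2 rose. EIF2S2 fell by 1.01. The synthetase and one-carbon calls were lost without the second-batch DMSO sum of Jurkat, and fewer genes of the aspartate list fell. The EIF2S2 call was lost without the first-batch DMSO sum of J-Lat A2. Fewer ATF4 or CHOP targets fell without the second-batch DMSO sum of J-Lat A2.

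With PMA, where 0.804% of all genes were called lower in J-Lat A2 and 1.11% in Jurkat, FARSA fell in both lines (-1.37 in J-Lat A2 and -1.63 in Jurkat), as did ASS1 (-2.36 and -1.82), GOT2 (-1.32 and -1.08), GCSH of the glycine cleavage system (-2.05 and -1.81) and CALR (-1.83 and -1.31). LARS1 (-1.43) passed the test in J-Lat A2, and GARS1 (-0.85) and MTHFD2 (-1.15) in Jurkat. In J-Lat A2, 2 of 20 synthetases, 1 of 18 one-carbon genes and 2 of 14 genes of the aspartate list fell. In Jurkat these counts were 2, 2 and 2. The synthetase and one-carbon calls in J-Lat A2 were lost without its second-batch DMSO sum. The aspartate list calls and the CALR call in Jurkat were lost without its second-batch DMSO sum. None of the 23 ATF4 or CHOP targets was called with PMA by edgeR in either line, with 5 and 6 at an unadjusted p under 0.05 and 3 and 5 called by DESeq2. The cystine transporter SLC7A11 stood at 12.4 and 11.9 CPM in the Jurkat DMSO sums, had 3 counts with SAHA and 0 with PMA; taking 3 counts over the PMA group as the floor, it was at least 79.3-fold lower with PMA. In J-Lat A2 the SLC7A11 log2 change with PMA was 0.21 (SE 0.73, adjusted p = 1). In Jurkat its edgeR adjusted p was 0.0173 with SAHA and 0.00993 with PMA, and the floor covers counting error only.

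Likeness to a member was measured as Pearson's r over the 9 sums, among 5910 genes with a mean of at least 20 CPM. These are descriptions of 9 points that share plates and batches. The genes most like ASNS were PLS3 (r = 0.99), SERF2 and GTSF1 (0.97 each), VRK2 (0.97) and MAGEA4 (0.96). For PSAT1 they were C15orf61 (0.98), CCT3 (0.97), NCL (0.97), PYCR1 (0.96) and FARSB (0.96). For TRIB3 they were RSL24D1 (0.95), RBCK1 (0.94), CRYBG1 (0.94), UBA2 (0.93) and SMPD2 (0.93). Within the set, PSAT1 and PHGDH had r = 0.91 and SLC3A2 and SHMT2 0.91, while ASNS and ATF4 had -0.05 and ASNS and PSAT1 0.17.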

How the data were processed

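The authors deposited 480 wells as 1 gene table of expected counts, with no scaling by depth. Salmon 1.5.1, alevin and the build GRCh38.p13 are named, per the submitters' processing notes, in no stated role; how strand, annotation and duplicates were handled was not given in the sources used. The primers in the labels' protocols carry no molecular identifier, so counts are amplified reads, and intervals and floors cover counting error only. Of the values above 0, 13.72% were not whole.

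The members and lists were chosen with earlier results of these data known. Whether each well held 1 cell was not checked, and no doublet caller was run. No 2 wells had identical values. Plates P2449 and P2458 were taken as the first batch and P2769, P2770 and P2771 as the second, from the stated 2 and 3 plates and the runs of plate numbers. A well was kept with a total of at least 1/10 of its plate's median and at least 500 genes (410 of 480). Kept totals ran from 19756 to 984418.

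Expected counts were summed per group and batch and rounded. The 9 sums were fitted in R 4.3.3 with edgeR 4.0.16 (TMM, filterByExpr, quasi-likelihood F test, two-sided, terms for group and batch, 2 residual and 7.75 prior degrees of freedom, Benjamini-Hochberg adjustment over 13558 genes) in 8 contrasts. The batch is the replicate, and its term takes up a shift common to all groups. The fit was tested on simulated data. Standard errors are the log2 change divided by the root of F.

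All 10 members are named. From each list up to 3 called genes with the lowest adjusted p per comparison with DMSO are named, and for ASNS, PSAT1 and TRIB3 the 5 most alike genes. Pseudogenes of ASNS, PSAT1, PSPH, ATF4 and SLC7A5 in GENCODE release 29 are not in the table, so reads from them could count for the parent gene. Shares of wells have 95% Clopper-Pearson intervals. Alternatives were DESeq2 1.42.0 size factors and Wald test, no filter, plates as units, the second batch alone, equal weight per cell with limma 3.58.1, no batch term, 2 other well filters, each replicate left out, and, added after seeing the data, wells with at least 2000 genes. A further marker gene is not reported here.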

Additional observations from a re-analysis of the deposited data

Results flagged for a closer look

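The 5 plate sums of J-Lat A2 with DMSO, J-Lat A2 with SAHA and Jurkat with DMSO were searched for a plate far from the others by Dixon's criterion at 95%, for each of the 10 genes. Of the 30 sets of 5 plates, 4 held one, where chance gives about 1 in 20. ATF4 in J-Lat A2 with DMSO was at 455 CPM on plate P2771 and between 524 and 549 CPM on the other plates. SHMT2 in J-Lat A2 with SAHA was at 388 CPM on plate P2769 and between 232 and 261 CPM on the others. PSPH in Jurkat with DMSO was at 128.99 CPM on plate P2769 and between 56.5 and 70.7 CPM on the others. DDIT3 in Jurkat with DMSO was at 4.72 CPM on plate P2458 and between 27.4 and 33.7 CPM on the others. The 2 Jurkat values come from groups of 30 wells over 5 plates, so few wells stand behind each.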

How the results depend on the processing

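All 15 calls of a member kept their direction under all 16 alternatives. The limma fit with equal weight per cell called 0 members and 0 genes in every comparison (adjusted p of the 6 SAHA members in J-Lat A2 0.107 to 0.133), and it moved the median of all genes in that comparison from 0.12 to -0.12. Other size factors, the stricter well filter and wells with at least 2000 genes kept the count of members called in every comparison. So did no filter and all wells, except between the lines, where both called 3 members instead of 2. Without the batch term (no replicate block) the lines also differed in 3 members, and 0.0295% of genes were called for the difference in SAHA effect instead of 0.00738%; the batch is the replicate, so the block is part of the reported fit.

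The share of genes called was 8.43% (SAHA, J-Lat A2), 1.98% (PMA, J-Lat A2), 4.22% (SAHA, Jurkat), 2.27% (PMA, Jurkat), 0.398% (lines with DMSO), 3.62% (PMA against SAHA), 0.00738% (difference in SAHA effect) and 0.0221% (difference in PMA effect). By the DESeq2 Wald test it was 14.5%, 5.49%, 9.40%, 6.28%, 3.13%, 7.74%, 0.266% and 0.221% in that order. Members called by DESeq2 were 2 with PMA in J-Lat A2, 6 and 3 with SAHA and PMA in Jurkat, 5 between lines and 1 for the difference in SAHA effect. With plates as units, which share their batch, the share was 14.2%, 5.85%, 11.4%, 7.02%, 1.39% and 9.16% from SAHA in J-Lat A2 to PMA against SAHA, with 6, 2, 7, 3, 4 and 5 members, and 0.0592% for the difference in SAHA effect. In the second batch alone it was 4.37%, 8.37%, 5.51%, 0.820%, 6.98%, 0.0611% and 0% from PMA in J-Lat A2 to the difference in PMA effect, with 2, 7, 3, 1 and 7 members in the first 5.

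With 1 sum left out, which leaves its group 1 sum assumed to vary like the others, the share of genes called ran from 2.73% to 11.7%, 0.682% to 3.53%, 2.09% to 6.44%, 0.880% to 4.20%, 0.282% to 1.19%, 2.69% to 4.99%, 0% to 0.120% and 0.00740% to 0.0751% in the order above. Members called ran from 5 to 6, 0 to 2, 1 to 6, 1 to 2, 1 to 5 and 2 to 4 in the first 6 comparisons.

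No called value changed sign, but 28 values of members not called did. With 1 sum left out, the log2 change of DDIT3 with SAHA in J-Lat A2 ran from -1.57 to 0.35, of TRIB3 with SAHA in Jurkat from -0.99 to 0.52 and of ATF4 with PMA in Jurkat from -0.89 to 0.12. Between the lines ATF4 ran from -0.15 to 0.88, DDIT3 from -0.96 to 0.51 and SLC7A5 from -0.29 to 1.88, and for PMA against SAHA PHGDH ran from -0.18 to 0.77. The differences in SAHA effect ran from -1.15 to 0.036 (PHGDH), -1.20 to 0.10 (ATF4) and -0.087 to 0.090 (SLC3A2, at -0.0017 without J-Lat A2 with SAHA replicate 1). Those in PMA effect ran from -0.39 to 0.47 (PHGDH), -0.60 to 0.43 (ATF4), -0.47 to 1.03 (TRIB3) and -1.63 to 0.54 (SLC7A5). With plates as units, SHMT2 with PMA in J-Lat A2 was 0.00053 and the ATF4 difference in PMA effect 0.038. In the second batch alone these were 0.016 and 0.31, and ATF4 between lines was -0.0056. Without the batch term SHMT2 with PMA was 0.021, and with no filter the SLC3A2 difference in SAHA effect was -0.013. By limma, SLC3A2 with PMA in J-Lat A2 was -0.15, the differences in SAHA effect of PSPH, SLC3A2 and SLC7A5 were -0.48, -1.06 and -0.32, and those in PMA effect of PHGDH and SHMT2 -0.32 and -0.28. The cause of these changes was not tested. Of 240 other values for shares of wells, 26 lay outside the interval of the reported share. The 30 to 36 Jurkat wells per group and the low levels of DDIT3 and SLC7A5 limit what could be seen there.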

Other observations

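In the list of aspartate, glutamine and asparagine handling, 2 of 14 genes passed the test between the lines with DMSO, both higher in J-Lat A2, where 0.398% of all genes were called and 0.251% higher, and both are named after their values were seen. The asparaginase-like enzyme ASRGL1, which releases aspartate from asparagine, stood at 141.6 and 179.6 CPM in J-Lat A2 and at 16.6 and 17.9 CPM in Jurkat (log2 difference 3.21, SE 0.27, edgeR adjusted p = 0.000686). ASS1, the argininosuccinate synthase, stood at 266 and 439.9 CPM in J-Lat A2 and at 24.7 and 55.7 CPM in Jurkat (3.19, SE 0.24, edgeR adjusted p = 0.000249). Both calls held in each fit that left out 1 sum. ASNS, which makes the amide that ASRGL1 splits, was higher in the same comparison. In both lines ASS1 fell with SAHA and with PMA, and ASRGL1 fell with SAHA, to 72.3 and 87.03 CPM in J-Lat A2 and 6.58 CPM in Jurkat.

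Thinned to 100000 counts, the median number of the 10 genes with a read was 8 per well in J-Lat A2 with DMSO (91 wells), 7 with SAHA and 8 with PMA (77 wells), and 7 in each Jurkat group. Across wells of 1 group the 45 pairs of members had a median Spearman rho of 0.03 to 0.32 by group. The highest of all pairs was 0.61, for PSAT1 and TRIB3 over 79 wells of J-Lat A2 with PMA. PSAT1 and SHMT2 (0.59) and SHMT2 and TRIB3 (0.56) followed in the same wells. The lowest was -0.40, for TRIB3 and DDIT3 over 30 wells of Jurkat with DMSO. Values of 1 well share its library depth. In the J-Lat A2 wells with PMA, rho with the well's total was 0.06 for PSAT1, 0.07 for TRIB3 and 0.27 for SHMT2.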
